A study of Mus musculus with 23 samples.

Results

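The 10 genes described here encode the class I antigen presentation machinery of mouse cortex: the classical class I heavy chains H2-K1 and H2-D1, the light chain B2m, the peptide transporter and loading genes Tap1, Tap2 and Tapbp, the immunoproteasome subunits Psmb8, Psmb9 and Psmb10, and the proteasome activator subunit Psme1. They were chosen by symbol, 10 of 39017 genes counted, and all 10 had enough counts to be tested in every comparison. RNA was measured in pulverised cortex, after depletion of ribosomal RNA, of mice in which 1 allele of H3f3a, a gene for the histone variant H3.3, carries a substitution of glycine 34. At 10 weeks there were 3 G34R animals (labelled Hf3fa+/G34R), 3 G34V animals, 2 G34W animals and 6 wild-type (WT) animals, and at postnatal day 7 there were 4 G34R (H3f3a G34R/+) and 4 WT animals. All animals at 10 weeks were male by label except replicate 2 of G34W, labelled female although its title starts with M like those of the males, and each genotype at day 7 held 2 males and 2 females. The substituted codon cannot be seen in gene counts, and genotypes rest on the labels. The number of founder lines behind each substitution is not given in the sources used here, G34V and G34W were measured at 10 weeks only, and the 3 comparisons with WT at that age share the same 6 WT animals. Libraries held 32.3 to 90.1 M (mega) counts at 10 weeks and 28.4 to 53.5 M at day 7.

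Class I molecules display peptides from inside the cell at its surface. The proteasome cuts proteins into peptides, the Tap1-Tap2 transporter carries these into the endoplasmic reticulum, tapasin (Tapbp) helps load them, and a heavy chain paired with beta-2-microglobulin (B2m) presents them to CD8 T cells. After interferon signalling, Psmb8, Psmb9 and Psmb10 replace the constitutive catalytic subunits Psmb5, Psmb6 and Psmb7, and Psme1 forms with Psme2 the PA28 activator ring. In brain, class I genes are low in most neurons and higher in microglia and endothelial cells. As the RNA came from whole tissue, a larger number of cells of a type and more RNA per cell cannot be told apart.

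Work on class I genes describes a compact promoter module of 3 kinds of site: an NF-kappaB site, an interferon-stimulated response element (ISRE) and a half-site of the cyclic AMP response element (CRE). The matching stretch is shown for H2-K1 and B2m, both called higher in G34R at 10 weeks by edgeR. Whether such sites have a part in any change of the members was not tested. The sequences are from RefSeq (GRCm38.p6), read 5′ to 3′ on the gene's own strand, and capitals mark letters that match a motif.
H2-K1 (chr17:34000381-34000460, minus strand): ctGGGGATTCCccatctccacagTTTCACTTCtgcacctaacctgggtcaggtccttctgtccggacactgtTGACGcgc
B2m (chr2:122147546-122147616, plus strand): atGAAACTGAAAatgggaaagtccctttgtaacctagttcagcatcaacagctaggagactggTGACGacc
In H2-K1 the capitals are GGGNNTTCC (kappaB-like), the reverse complement of GAANNGAAA (a short ISRE-like form, which was added after these promoters had been read) and TGACG (CRE half-site). In B2m they are 2 copies of GAAA with 2 bases between them (the longer ISRE-like form) and TGACG. The string GGGNNTTCC was not found in the B2m window. Other forms of a kappaB site were not searched, so this cannot tell whether B2m lacks such a site.

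The matching 80 bases upstream of H2-D1 were 95.0% identical to those of H2-K1 and hold the same 3 matches. The letters were searched on both strands of the 250 bases upstream of a start, and no matches overlapped in the members. Over 32817 promoters of that length, GGGNNTTCC was found in 4.97%, GAANNGAAA in 6.31%, the longer ISRE-like form in 2.97% and TGACG in 17.8%. A RefSeq promoter was found for 9 members. TGACG was also present upstream of Tap1 and Psmb9. The windows of Tapbp, Psmb8, Psmb10 and Psme1 held none of the letter strings listed here. Of these, edgeR called Psmb8 and Tapbp higher and Psmb10 lower in G34R at 10 weeks. H2-D1, with 3 matches, was not called. A match is a description of the sequence and not a measured binding site.

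Of the members, 7 lie on chromosome 17 in the H2 region: Tapbp (33915899 to 33929292), H2-K1 (33996017 to 34000347), the run of Psmb9 (34181987 to 34187764), Tap1 (34187553 to 34197225), Psmb8 (34197721 to 34201454) and Tap2 (34203527 to 34216321), and H2-D1 (35262730 to 35267499). B2m lies on chromosome 2 (122147686 to 122153083), Psmb10 on chromosome 8 (105935735 to 105938444) and Psme1 on chromosome 14 (55578123 to 55581529), all in GRCm38 by GENCODE M21. Some reads cannot be placed with certainty. Of the 50-base stretches in their transcripts, 9.63% in H2-K1 and 12.8% in H2-D1 also occur in another gene, most often another class I heavy chain, against 5.47% in Psme1, 2.87% in Tapbp and under 1% in each of the others. Tap1 and Psmb9 share 212 exon bases on opposite strands, Psmb8 shares 498 with the antisense gene Gm20496, and Tap2 shares 533 with Gm15821. Tapbp shares 149 with Zbtb22 on its own strand, and 904 with the antisense gene Gm19412, which is not among the genes counted. The strand setting of the counting is not given in the sources used here, so counts in these stretches are uncertain. Those in the stretch shared with Zbtb22 are uncertain at any strand setting.

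In WT cortex at 10 weeks the members differed widely in level. Per kilobase of exon, B2m stood at 55.0 CPM (counts divided by the TMM-scaled library size in M), Psmb10 at 16.2, H2-D1 at 11.2, Psme1 at 9.33, Tapbp at 6.59, H2-K1 at 5.90, Tap2 at 1.80, Psmb8 at 0.707, Tap1 at 0.463 and Psmb9 at 0.298 (means of 6 animals). Psmb10 was thus the most abundant of the 3 immunoproteasome subunits, and Psmb8 and Psmb9 rested on few counts, 64 to 188 and 37 to 90 per WT animal. In G34R animals at 10 weeks the level per kilobase was 104 CPM for B2m, 19.3 for H2-D1, 11.9 for H2-K1 and 11.2 for Psmb10. The mean of H2-D1 per kilobase thus stood above that of Psmb10 in that group and below it in WT. This order depends on the exon lengths: in CPM not divided by length, H2-D1 averaged 28.95 in WT and Psmb10 27.62. Per kilobase, H2-K1 was close to Psmb10 in G34R, and in replicate 1 it was lower, at 10.8 CPM against 11.9 for Psmb10.

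**Figure D1:**
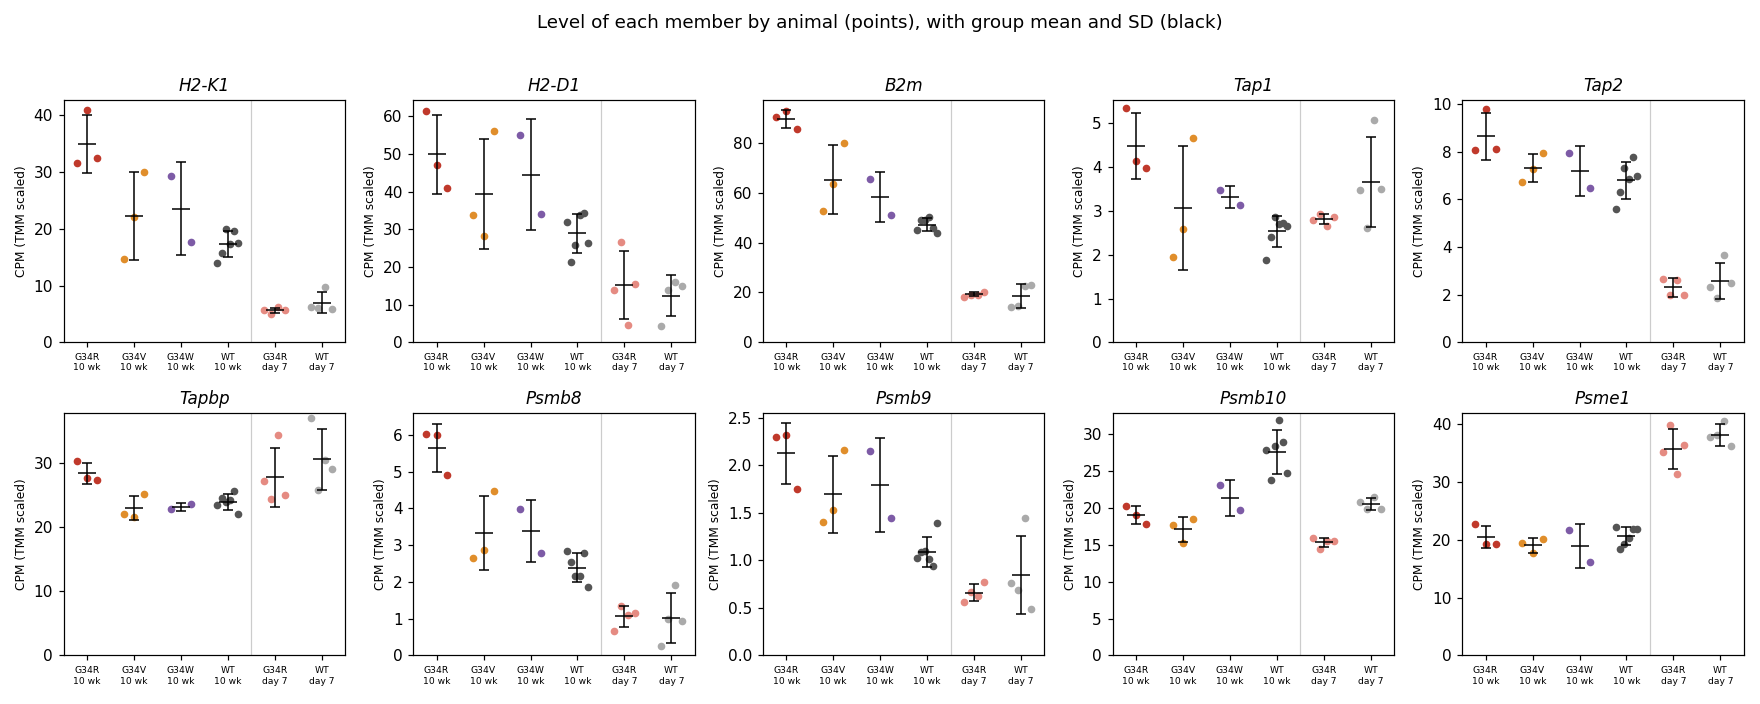
Level of each of the 10 genes in CPM (TMM scaled, y axis from 0) in every animal (points) of the 6 groups, with the group mean and SD in black (3 G34R, 3 G34V, 2 G34W and 6 WT animals at 10 weeks; 4 G34R and 4 WT animals at day 7). The G34R animals at 10 weeks stand above all WT animals of that age for B2m, H2-K1, Psmb8, Psmb9 and Tap1, and all mutant groups stand below WT for Psmb10.

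In G34R cortex at 10 weeks, 6 of the 10 members rose (B2m, H2-K1, Psmb8, Psmb9, Tap1 and Tapbp) and Psmb10 fell, at an edgeR adjusted p under 0.05. Over all 21288 genes tested in that comparison, 2.92% were called higher and 2.63% lower. The median log2 fold change of the 10 members was 0.81, against -0.00 over all genes tested. H2-D1, Tap2 and Psme1 did not pass the test.

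B2m, the light chain shared by all class I molecules, had 90.7, 92.7 and 85.7 CPM in the G34R animals, against 43.7 to 50.4 CPM (median 47.4) in the WT animals. Its log2 fold change was 0.92 (SE 0.10, edgeR adjusted p = 2e-05), and it passed the test in each of 21 alternatives. H2-K1, a heavy chain, had 31.7, 40.9 and 32.4 CPM in G34R, against 13.9 to 20.0 CPM (median 17.4) in WT. The difference was 1.01 (SE 0.20, adjusted p = 0.0118), and without replicate 2 of G34R the adjusted p was 0.0713. In both genes every G34R animal lay above every WT animal.

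H2-D1, the other heavy chain, had 61.5, 47.1 and 41.1 CPM in G34R animals, against 21.3 to 34.4 CPM (median 29.2) in WT animals. The groups did not overlap, yet the spread within them was wide and the fold change of 0.79 (SE 0.24) missed the threshold (adjusted p = 0.095). It passed in 3 of 21 alternatives, DESeq2 among them (adjusted p = 0.0317). Another was edgeR with the level of Vps52, a gene near H2-K1, as a covariate (1.02, adjusted p = 0.0068). Vps52 was chosen after its values had been seen, so that pass gives the call of H2-D1 no independent support.

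Tap1, a transporter subunit, had 5.35, 4.14 and 3.98 CPM in G34R, against 1.88 to 2.86 CPM (median 2.68) in WT. The log2 fold change was 0.83 (SE 0.21, adjusted p = 0.024), and the call was lost without replicate 1 (adjusted p = 0.168) or replicate 2 (0.0541) of G34R and with sets of adjacent columns of the count table as a block (0.0828). Tap2, the partner subunit, had 8.06, 9.78 and 8.11 CPM in G34R, against 5.58 to 7.77 CPM (median 6.91) in WT. The groups stood apart by a narrow margin and the fold change of 0.34 (SE 0.11) did not pass (adjusted p = 0.0943). Tapbp, which encodes tapasin, had 30.2, 27.5 and 27.3 CPM in G34R, against 21.9 to 25.5 CPM (median 24.01) in WT. This was a small change of 0.25 (SE 0.07, adjusted p = 0.0346), and it passed in 11 of 21 alternatives only. Without replicate 1 of G34R its adjusted p was 0.21, and with the column sets as a block it was 0.117.

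Among the immunoproteasome subunits, Psmb8 had 6.02, 6.01 and 4.90 CPM in G34R animals, against 1.85 to 2.83 CPM (median 2.35) in WT animals. Its log2 fold change of 1.24 (SE 0.18, adjusted p = 0.000227) was the largest of the 10 members. Psmb9 had 2.30, 2.32 and 1.75 CPM in G34R, against 0.940 to 1.39 CPM (median 1.05) in WT, a change of 0.97 (SE 0.20, adjusted p = 0.00551). Both kept their call in all 21 alternatives. Psmb10 went the other way. It had 20.3, 19.0 and 17.9 CPM in G34R, against 23.8 to 32.0 CPM (median 28.1) in WT, a change of -0.54 (SE 0.09, adjusted p = 0.00144) that was also called in all 21 alternatives. No G34R animal reached the lowest WT animal. Psme1 had 22.6, 19.3 and 19.3 CPM in G34R and 18.4 to 22.2 CPM in WT, and its fold change of -0.01 (SE 0.09) did not pass (adjusted p = 0.967).

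**Figure D2:**
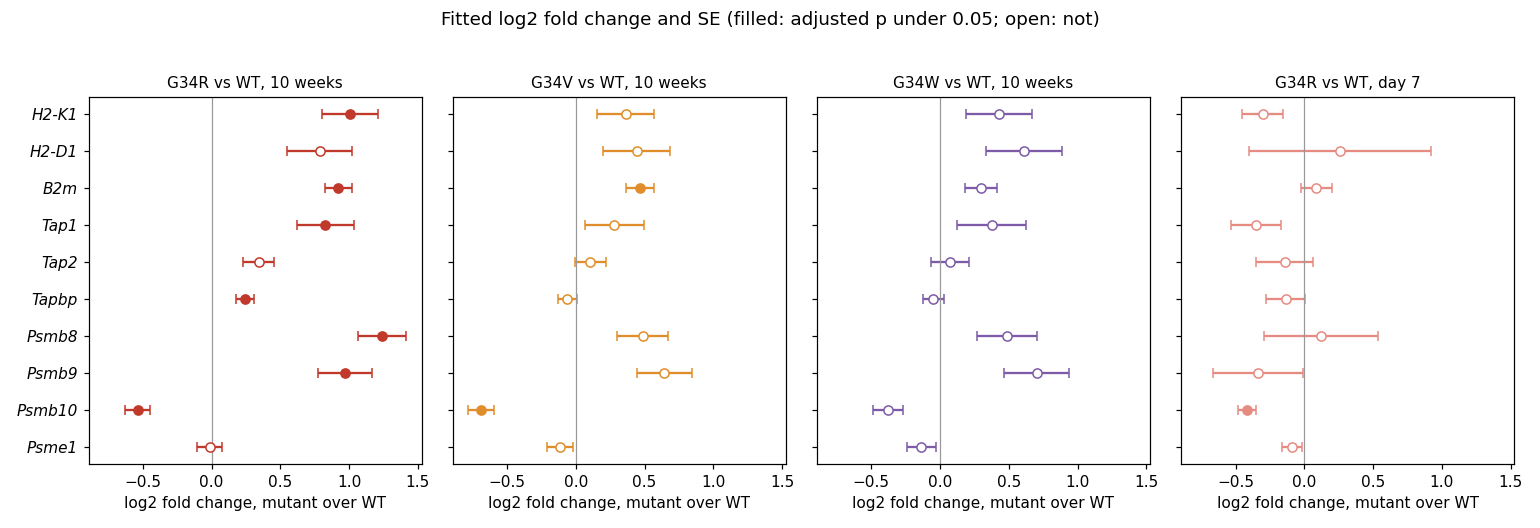
Fitted log2 fold change of each member, mutant over WT (x axis), with its SE, in G34R, G34V and G34W at 10 weeks and in G34R at day 7. Filled points passed an edgeR adjusted p of 0.05; Psmb10 lies left of 0 in all 4 panels, from -0.69 in G34V to -0.38 in G34W.

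In G34V cortex only 2 members passed the test: B2m rose and Psmb10 fell, against 1.57% of all genes called higher and 2.67% called lower. B2m had 52.7, 63.4 and 79.9 CPM in G34V, all above the highest WT animal (50.4 CPM), a change of 0.47 on the log2 scale (SE 0.10, adjusted p = 0.0125). That call rested on 1 animal and on the layout of the samples: the adjusted p was 0.101 without replicate 3 of G34V, 0.124 with a block for animals numbered in sequence and 0.187 with the column sets as a block. Psmb10 had 17.7, 15.2 and 18.5 CPM, all below the lowest WT animal (23.8 CPM), a change of -0.69 (SE 0.09, adjusted p = 0.000252) that held in all 21 alternatives. Psmb9 had 1.40, 1.53 and 2.16 CPM, above all WT animals, with a fold change of 0.64 (SE 0.20, adjusted p = 0.0901) that DESeq2 called (adjusted p = 0.0498). The other fold changes were 0.36 for H2-K1, 0.44 for H2-D1, 0.28 for Tap1, 0.11 for Tap2, -0.06 for Tapbp, 0.48 for Psmb8 and -0.12 for Psme1, with adjusted p-values of 0.184 to 0.739.

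In G34W cortex, with 2 animals, 0 of 10 members passed edgeR's test, against 0.568% of all genes called higher and 1.07% called lower. At an unadjusted edgeR p under 0.05 there were 4 members, and 3652 of all 21288 genes. Against WT, 3850 genes had such a p in G34R and 3321 in G34V at that age. At day 7 it was 1584 of 20461 genes in G34R. DESeq2 called 1 member in G34W, Psmb10 (-0.38, adjusted p = 0.0356), and over all 21288 genes it called 346 higher and 572 lower. Psmb10 had 23.1 and 19.7 CPM in G34W, below all WT animals, and edgeR gave -0.38 (SE 0.11, adjusted p = 0.0933). B2m had 65.5 and 51.2 CPM in G34W, above all WT animals, with a fold change of 0.30 (SE 0.12, adjusted p = 0.21). For Psmb9 the change was 0.70 (SE 0.24, adjusted p = 0.143), and for the other 7 members adjusted p-values ran from 0.264 to 0.82.

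Within G34V and G34W, single animals stood high across several class I genes at once. Replicate 3 of G34V had 30.0 CPM of H2-K1, 56.0 of H2-D1, 4.67 of Tap1, 4.48 of Psmb8 and 2.16 of Psmb9, while replicate 1 of the same group had 14.6, 33.8, 1.95, 2.65 and 1.40 CPM of these genes. Replicate 1 of G34W had 29.4 CPM of H2-K1, 54.9 of H2-D1 and 2.15 of Psmb9, against 17.7, 34.1 and 1.44 CPM in replicate 2. In G34V the coefficient of variation was 46.5% for Tap1, 37.3% for H2-D1, 34.6% for H2-K1, 30.0% for Psmb8, 23.9% for Psmb9 and 20.96% for B2m. Psmb10 (9.89%), Tapbp (8.26%), Tap2 (8.21%) and Psme1 (6.69%) varied less. In G34W, with 2 animals, it was 2.52% for Tapbp, 7.56% for Tap1 and 11.3% for Psmb10, and 14.4% to 35.0% for the other members.

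Set against the other substitutions, G34R had the highest mean B2m. Each substitution stood in its own set of adjacent columns of the count table, beside some of the WT libraries, so a difference between substitutions cannot be told apart from one between column sets except through those WT libraries. The difference of G34R from G34W was 0.63 (SE 0.13, adjusted p = 0.0287), and it was the 1 member called of 10, with 0.939% of all genes called higher and 0.935% lower in that comparison. The call was lost, at a smaller difference of 0.46, without replicate 2 of G34W (adjusted p = 0.135), the 1 female at 10 weeks, and equally with sex as a covariate (0.133), which at that age sets the same animal aside. It was also lost with the column sets as a block (0.52, adjusted p = 0.43). With Vps52 as a covariate (0.64, adjusted p = 0.0645) and without any 1 of the G34R animals (0.61 to 0.67, adjusted p 0.064 to 0.0853) the size was close to that of all animals while the p missed the threshold. Between G34R and G34V, 0 members were called by edgeR (0.174% of all genes higher, 0.0564% lower). An unadjusted edgeR p under 0.05 was found for 5 members and for 2311 of all 21288 genes. DESeq2 called 3 members higher in G34R: B2m (0.46), Tapbp (0.32) and Psmb8 (0.76). Over all 21288 genes DESeq2 called 183 higher and 98 lower in that comparison. The intervals of 2 SE around the edgeR difference ran from 0.22 to 0.69 for B2m, from 0.33 to 1.18 for Psmb8 and from -0.06 to 0.37 for Psmb10. Without replicate 3 of G34V, edgeR called 4 members, B2m, Tap1, Tapbp and Psmb8, and over all 21210 genes it called 99 higher and 30 lower. Between G34V and G34W 0 were called by edgeR or DESeq2 (0.0376% of all genes higher, 0.113% lower by edgeR). Psmb10 was the 1 member with an unadjusted edgeR p under 0.05 (-0.31, interval -0.55 to -0.07). Such a p was found for 2483 of all 21288 genes, and 1 of 10 members is near that share.

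At day 7 the class I genes of G34R showed no call, and Psmb10 was already lower. It was the 1 member called of 10, against 0.112% of all genes called higher and 0.195% called lower. Psmb10 had 15.9, 14.4, 15.5 and 15.5 CPM in G34R pups, against 20.9, 19.9, 21.5 and 19.8 CPM in WT pups, a change of -0.41 on the log2 scale (SE 0.06, adjusted p = 0.0329 by edgeR and 5.62e-05 by DESeq2). The groups stood well apart with little spread in either. The edgeR call was lost when any 1 of the 8 pups was left out (adjusted p 0.0629 to 0.144), while the fold change stayed between -0.44 and -0.39. B2m had 18.4 to 20.3 CPM in G34R pups, inside the range of 14.2 to 23.0 CPM in WT pups, with a fold change of 0.09 (SE 0.11, adjusted p = 0.928). In WT pups B2m was 14.2 and 14.5 CPM in the males and 22.8 and 23.0 CPM in the females, and in G34R pups it was 18.4 and 19.1 CPM in males and 19.2 and 20.3 CPM in females. H2-K1 had 5.66, 4.98, 6.18 and 5.69 CPM in G34R pups, against 6.27, 6.11, 9.71 and 5.85 CPM in WT pups, a change of -0.30 (SE 0.15, adjusted p = 0.703). For the other 7 members adjusted p-values ran from 0.715 to 0.977.

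The difference between the ages was itself tested in a fit of all 22 animals. The G34R effect at 10 weeks exceeded that at day 7 by 0.86 (SE 0.19, adjusted p = 0.0288) for B2m and by 1.33 (SE 0.30, adjusted p = 0.0378) for H2-K1, 2 of 10 members, with 0.526% of all genes called higher and 0.557% lower. Tap1 (1.19, SE 0.30, adjusted p = 0.0558) and Psmb9 (1.32, SE 0.37, adjusted p = 0.103) missed the threshold. For Psmb10 the difference was -0.12 (SE 0.12, interval of 2 SE -0.36 to 0.13, adjusted p = 0.804). The calls of B2m and H2-K1 were fragile: leaving out 1 animal gave adjusted p-values of 0.0161 to 0.0764 for B2m and 0.0442 to 0.107 for H2-K1. Age cannot be told apart from whatever else differed between the 2 sets of samples.

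In WT cortex itself, 7 members differed between 10 weeks and day 7, when 31.3% of all genes were called higher and 32.6% lower at 10 weeks. B2m averaged 47.3 ± 2.63 CPM at 10 weeks (SD, n = 6) and 18.6 ± 4.93 CPM at day 7 (n = 4), which is 1.47 on the log2 scale (SE 0.15, adjusted p = 3.91e-08 by edgeR). Tap2 (1.47), Psmb8 (1.38), H2-K1 (1.33) and Psmb10 (0.42) were also higher at 10 weeks, with adjusted p-values of 1.21e-07, 0.00146, 6.58e-05 and 0.000245. Psme1 was lower, at 20.6 ± 1.55 CPM in adults and 38.1 ± 1.85 CPM in pups (-0.95, SE 0.08, adjusted p = 8.71e-10), and so was Tapbp (-0.32, adjusted p = 0.00813). The members thus did not share 1 course with age, and a count of 7 of 10 lies near the share of genes called in this comparison.

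A ratio within an animal does not depend on how libraries are scaled, so each immunoproteasome subunit was set against its constitutive counterpart. Psmb8 counts were 10.3% to 14.1% of Psmb5 counts in G34R animals at 10 weeks, against 3.99% to 6.55% in WT. Psmb9 counts were 2.36% to 3.22% of Psmb6 counts in G34R, 2.02% to 2.89% in G34V and 2.25% and 2.88% in G34W, against 1.31% to 1.93% in WT. Both ratios were thus higher in G34R than in every WT animal, by 1.28 and 0.86 on the log2 scale. Psmb10 counts were 18.2% to 21.2% of Psmb7 counts in G34R, 16.3% to 18.3% in G34V and 20.7% and 22.9% in G34W, against 25.0% to 32.1% in WT. At day 7 the Psmb10 ratio was 14.1% to 15.9% in G34R pups, against 19.8% to 21.1% in WT pups. The mean log2 difference of that ratio was -0.52 in G34R, -0.70 in G34V, -0.39 in G34W and -0.45 in G34R at day 7, with no overlap of mutant and WT animals in any of these 4 comparisons.

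Two-sided exact permutation tests of these ratios gave p = 0.0238 for all 3 in G34R, for Psmb9 and Psmb10 in G34V, p = 0.0286 for Psmb10 at day 7 and p = 0.0714 for all 3 in G34W, each the smallest p that its group sizes allow. After adjustment over the 12 tests no value was under 0.05 (0.0571 for those at 0.0238 or 0.0286, 0.0952 for G34W). The other 3 exact permutation tests gave p = 0.119 for Psmb8 in G34V, 0.743 for Psmb8 at day 7 and 0.486 for Psmb9 at day 7. The constitutive subunits themselves showed no call: 0 of Psmb5, Psmb6 and Psmb7 passed edgeR or DESeq2 in any comparison of a mutant with WT, and 0 had an unadjusted p under 0.05. In G34R at 10 weeks their log2 fold changes were -0.04, 0.10 and -0.02.

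**Figure D3:**
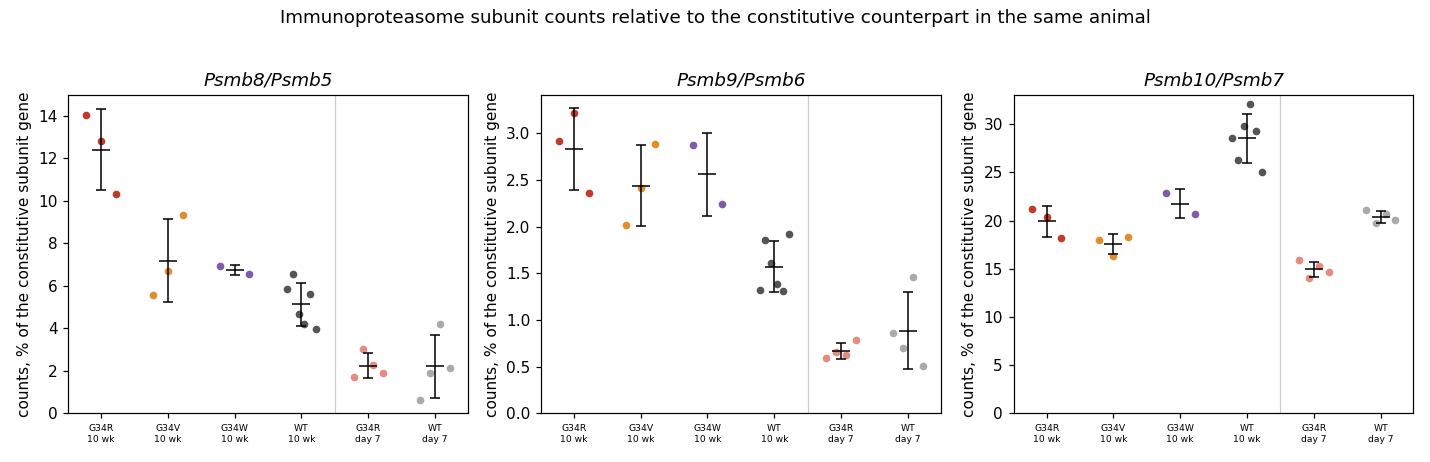
Counts of Psmb8, Psmb9 and Psmb10 as a percentage of the counts of Psmb5, Psmb6 and Psmb7 in the same animal (y axis from 0), for each animal of the 6 groups, with group mean and SD in black. Psmb10 is 18.2% to 21.2% of Psmb7 in G34R and 25.0% to 32.1% in WT at 10 weeks, while Psmb8 is 10.3% to 14.1% of Psmb5 in G34R and 3.99% to 6.55% in WT.

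Other proteasome genes were examined as well. Among 12 other core subunit genes, 0 were called by edgeR or DESeq2 against WT in any mutant group. At an unadjusted edgeR p under 0.05 there was 1 in G34R at 10 weeks and 0 in the other comparisons. Over all genes edgeR called 2.92% higher and 2.63% lower in G34R at 10 weeks, and 1.57% and 2.67% in G34V. A count of 0 of 12 lies near these shares and cannot tell whether these genes changed. Of the other activator genes, Psme2 (PA28 partner of Psme1) had 5.02 ± 0.74 CPM in G34R and 4.28 ± 0.63 CPM in WT at 10 weeks, a fold change of 0.24 (SE 0.14, adjusted p = 0.41), and Psme3 (-0.13, adjusted p = 0.191) and Psme4 (-0.01, adjusted p = 0.954) did not pass. Summed over the 12 core genes, levels were 649 to 673 CPM in G34R, 631 to 688 CPM in G34V, 606 and 755 CPM in G34W and 616 to 687 CPM in WT.

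Of 10 further genes of peptide trimming and loading, 1 was called in G34R at 10 weeks and it fell. Tapbpl encodes TAPBPR, a second peptide editor of class I molecules, and had 3.46 ± 0.39 CPM in G34R and 3.39 ± 0.05 CPM in G34V, against 6.65 ± 0.56 CPM in WT (SD, n = 3, 3 and 6). Its log2 fold change was -0.93 (SE 0.11, edgeR adjusted p = 3.73e-05) in G34R and -0.97 (SE 0.11, adjusted p = 4.82e-05) in G34V, while in G34W it was -0.27 (adjusted p = 0.287) and in G34R at day 7 0.14 (adjusted p = 0.894). Tapasin and TAPBPR genes were thus called in opposite directions in G34R. In the fit of both ages the G34R effect on Tapbpl at 10 weeks was below that at day 7 by a called difference (-1.07, SE 0.16, adjusted p = 0.000831). Hspa5, a chaperone of the endoplasmic reticulum, rose in G34V (0.44, SE 0.07, adjusted p = 0.000825) and was not called in G34R (-0.01, adjusted p = 0.947), and G34R lay below G34V (-0.45, SE 0.08, adjusted p = 0.0212). The remaining 8 genes of the list were not called in either.

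Of 14 genes that regulate class I transcription, 6 rose in G34R at 10 weeks and 0 fell, and the median log2 fold change of the 14 was 0.21, against -0.00 over all genes. Irf8, a transcription factor of microglia, rose by 1.28 (SE 0.12, edgeR adjusted p = 3.37e-06), and Irf9, a part of the interferon-activated ISGF3 complex, by 1.14 (SE 0.14, 5.12e-05). Irf7 (1.42, SE 0.27, 0.00413) and Irf1 (0.53, SE 0.11, 0.00541), both interferon-regulatory factors, rose as well. Nlrc5, the transactivator specific to class I promoters, had 1.31 ± 0.14 CPM in G34R, against 0.565 ± 0.235 CPM in WT, a change of 1.20 (SE 0.33, adjusted p = 0.0433). The class II transactivator Ciita (-0.66, adjusted p = 0.307), the constant promoter-binding subunits Rfx5 (0.08, 0.687), Rfxank (0.11, 0.488) and Rfxap (0.12, 0.429), the NF-kappaB subunits Rela (0.26, 0.0645) and Nfkb1 (0.17, 0.316), and Irf2 (-0.02, 0.954) and Stat2 (0.10, 0.66) did not pass. In G34V, Irf8 (0.74, adjusted p = 0.00182) and Irf9 (0.65, 0.0136) rose and 12 did not pass. In G34W and in G34R at day 7, 0 of 14 were called by edgeR or DESeq2, with 1 and 2 at an unadjusted p under 0.05. The receptor genes Ifnar1, Ifnar2, Ifngr1 and Ifngr2 were not called by edgeR or DESeq2 in any mutant group, and of the 8 interferon and receptor genes listed only these 4 had enough counts to be tested.

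Other class I heavy chains followed in part. Of 17 tested, 3 rose in G34R at 10 weeks and 0 fell: Mr1, which presents vitamin metabolites (0.53, SE 0.12, adjusted p = 0.0161), H2-Q1 (1.01, SE 0.27, 0.0326) and H2-Q4 (0.93, SE 0.24, 0.0339). H2-Q4 had 5.55 ± 0.31 CPM in G34R, against 2.89 ± 0.76 CPM in WT. H2-T23, which encodes the Qa-1 antigen, had 15.1 ± 3.25 CPM in G34R and 15.0 ± 3.60 CPM in WT (0.00, adjusted p = 0.995). In G34V, G34W and G34R at day 7 edgeR called 0, with 4, 4 and 1 at an unadjusted p under 0.05 and 0, 2 and 0 called by DESeq2. Since reads of these genes and of H2-K1 and H2-D1 are partly shared, single values are uncertain. Fcgrt encodes the chain of the neonatal Fc receptor that pairs with B2m, and is not a receptor for class I molecules. It was 1 of 3 genes tested from a list of class I receptors, and it rose in G34R (0.43, SE 0.11, adjusted p = 0.0316).

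Class II presentation, by which antigen-presenting cells display extracellular peptides, is encoded in part beside the transporter run. Of 7 genes of class II presentation, 3 rose in G34R: Ctss, the protease that trims the invariant chain (1.40, SE 0.09, adjusted p = 4.23e-08), H2-DMb1, part of the class II peptide loader (1.001, SE 0.26, 0.0323) and Cd74, the invariant chain (0.94, SE 0.25, 0.0387). Ctss rose in G34V as well (0.81, SE 0.09, adjusted p = 2.7e-05), the 1 call of 7 there. Within 50 kb of the Psmb9-Tap1-Psmb8-Tap2 run, H2-Ob, a class II peptide-exchange regulator, had 1.93 CPM in G34R, 0.947 CPM in G34V and 0.382 CPM in WT on average, with changes of 2.33 (SE 0.32, adjusted p = 0.00013) and 1.31 (SE 0.33, adjusted p = 0.0328). The antisense gene Gm20496, which overlaps Psmb8 and Tap2, rose in G34R as well (0.75, SE 0.21, adjusted p = 0.0449), whereas H2-DMa (0.25, adjusted p = 0.208), H2-DMb2 (0.80, 0.232), Gm15821 (0.47, 0.138) and H2-Ab1 (0.77, 0.164) did not pass.

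The neighbours of Psmb10 had no edgeR call against WT. Of 8 genes within 50 kb of Psmb10 that were tested at 10 weeks, counting genes on both strands, 0 were called by edgeR in G34R, G34V or G34W, with 1, 1 and 2 at an unadjusted p under 0.05, and DESeq2 called 1, 0 and 0. At day 7 the count was 0 of 7 by edgeR and DESeq2, with 0 at an unadjusted p under 0.05. Over all genes edgeR called 2.63% lower in G34R, 2.67% in G34V and 1.07% in G34W, and 0.195% at day 7. A count of 0 among so few genes lies near these shares and cannot tell whether they changed with Psmb10. Lcat, 1107 bases away, had a fold change of 0.28 (SE 0.09, adjusted p = 0.0735) in G34R and 0.01 (adjusted p = 0.973) in G34V, and the antisense gene Gm16156, which overlaps Psmb10 but shares no exon bases with it, had 0.05 (adjusted p = 0.907) in G34R. The neighbours of Psme1, which was itself not called, included Irf9, which rose in G34R and G34V, and 2 genes named here after their values had been seen. Emc9, which shares 14 exon bases with Psme1 and encodes a subunit of the membrane protein insertion complex, fell in G34R (-0.56, adjusted p = 0.000303), G34V (-0.44, 0.00402) and G34W (-0.41, 0.0426) and had -0.41 (0.0771) in G34R at day 7. Rec8, a meiotic cohesin gene, fell in G34V (-2.79, 4.66e-05). Beside H2-K1, 1 of 11 genes tested within 50 kb was called at 10 weeks, and it fell in all 3 substitutions: Col11a2, a collagen gene also named after its values were seen, had 7.55 CPM in G34R, 7.36 CPM in G34V and 6.10 CPM in G34W, against 16.9 CPM in WT, with log2 fold changes of -1.16, -1.20 and -1.46 (adjusted p 1.28e-05, 1.69e-05 and 0.000238).

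Over the 14 animals at 10 weeks, the 5 genes whose log2 CPM ran closest to that of B2m, of 16842 with a mean of at least 1 CPM, were Gm15852 (Pearson r 0.97), Plek (0.96), Ctsh (0.96), Irf8 (0.95) and Lcp1 (0.95). Among the members r with B2m was 0.94 for Psmb8, 0.92 for H2-K1, 0.88 for Psmb9, 0.84 for Tap1, 0.77 for Tap2, 0.77 for H2-D1, 0.68 for Tapbp, 0.01 for Psme1 and -0.62 for Psmb10. The genes closest to Psmb10 were Grhpr (0.97), Msrb2 (0.96), Galk2 (0.95), Tbrg1 (0.95) and Gm13205 (0.95), on chromosomes 4, 2, 2, 9 and 4. These values describe animals of 4 genotypes and so hold the differences between genotypes as well as those within them.

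Markers of other cell types were examined in the same animals. Of 10 microglia markers 7 rose in G34R at 10 weeks, 5 in G34V, 1 in G34W and 3 in G34R at day 7, none fell, and none was at 0 in any group. Their summed level was 551 to 598 CPM in G34R, 419 to 522 CPM in G34V, 404 and 448 CPM in G34W and 360 to 389 CPM in WT, and at day 7 it was 211 to 237 CPM in G34R and 169 to 186 CPM in WT. At day 7 the marker sums of the groups did not overlap, while B2m of the same pups did with males and females pooled. Within each sex B2m did not overlap, and the direction differed. With 2 pups of each genotype per sex, groups often stand apart by chance, and a difference of the effect between sexes was not tested. In males B2m was 18.4 and 19.1 CPM in G34R, against 14.2 and 14.5 CPM in WT. In females it was 19.2 and 20.3 CPM in G34R, against 22.8 and 23.0 CPM in WT. Endothelial markers showed 0 calls of 8 by edgeR or DESeq2 in any of these comparisons, with at most 1 at an unadjusted p under 0.05, at 204 to 229 CPM in G34R and 210 to 259 CPM in WT at 10 weeks. Of 10 T and NK cell markers 2 had enough counts to be tested at 10 weeks and neither was called by edgeR or DESeq2, and the sum of all 10 was 3.59 to 4.79 CPM in G34R and 3.44 to 7.69 CPM in WT. Of 5 oligodendrocyte markers 0 were called in G34R at 10 weeks (2 at an unadjusted p under 0.05, 1 by DESeq2), 2 fell in G34V, Cnp among them, and 1 fell in G34W, and the sum of the 5 was 2645 to 3397 CPM in G34R and 3530 to 4589 CPM in WT. Astrocyte, choroid plexus and blood markers showed 0 calls by edgeR or DESeq2 against WT in any mutant group, with 3 astrocyte markers at an unadjusted p under 0.05 in G34R and 2 in G34W at 10 weeks. The sum of the 8 cortical neuron markers, of which 1 fell in G34R and 1 in G34W, was 3195 to 4157 CPM over all animals at 10 weeks, and choroid plexus markers varied from 13.7 to 1039 CPM between animals. The part of these cell types in the members' changes was not tested.

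**Figure D4:**
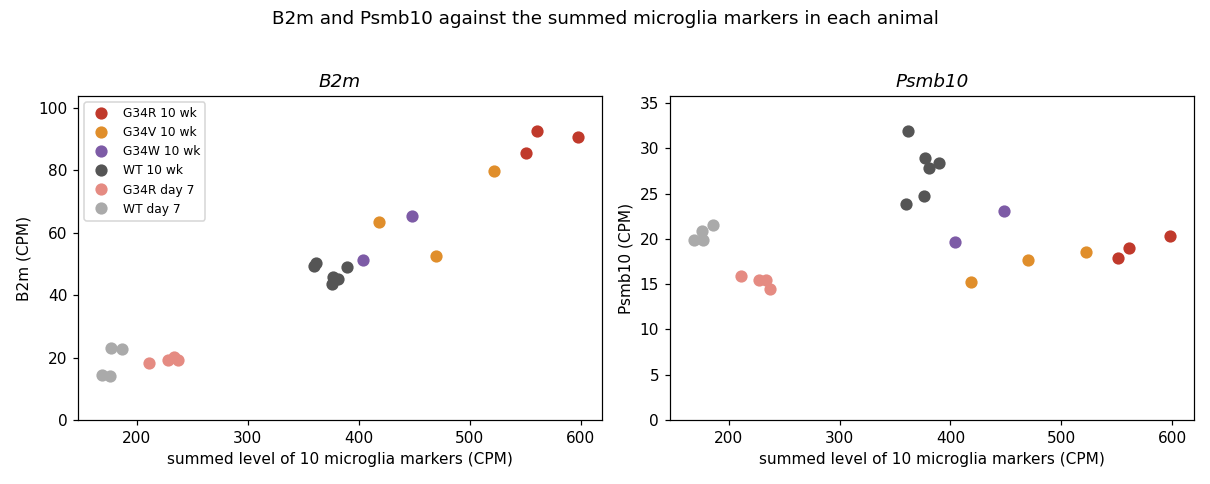
Level of B2m (left) and Psmb10 (right) in CPM against the summed level of 10 microglia markers in CPM, 1 point per animal, coloured by group. At 10 weeks the G34R animals have marker sums of 551 to 598 CPM with B2m at 85.7 to 92.7 CPM and Psmb10 at 17.9 to 20.3 CPM, against sums of 360 to 389 CPM, 43.7 to 50.4 CPM and 23.8 to 32.0 CPM in WT.

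H2-D1 varied between animals of 1 genotype along with Vps52, which lies on chromosome 17 between Tapbp and H2-K1 (33955812 to 33967035) and encodes a subunit of a vesicle tethering complex; Vps52 was singled out after its values had been seen. At day 7, H2-D1 had 13.98, 26.6, 4.71 and 15.6 CPM in the G34R pups and 4.45, 13.95, 16.1 and 15.0 CPM in the WT pups. In the same pups Vps52 had 76.4, 57.2, 103 and 76.5 CPM in G34R and 106, 80.4, 79.5 and 80.6 CPM in WT. The 2 pups with the lowest H2-D1, 1 of each genotype, had the highest Vps52, and the pup with the highest H2-D1 had the lowest. These 2 pups also had the lowest H2-T24, at 1.38 CPM in G34R and 0.896 CPM in WT, against 3.52 to 7.92 CPM in the others, and the highest Tapbp, at 34.3 CPM in G34R and 36.9 CPM in WT. At 10 weeks Vps52 had 60.5, 81.4 and 76.8 CPM in the G34R animals, 63.7, 75.8 and 55.6 CPM in G34V, 56.5 and 57.7 CPM in G34W and 53.5 to 75.2 CPM in WT. The G34R animal with the least Vps52 had the most H2-D1 (61.5 CPM), the G34V animal with the least Vps52 had the most H2-D1 of its group (56.0 CPM), and the WT animal with the most Vps52 had the least H2-D1 (21.3 CPM). The order did not hold throughout: the G34R animal with the most Vps52 (81.4 CPM) had more H2-D1 (47.1 CPM) than the one with 76.8 CPM (41.1 CPM), and the WT animal with the least Vps52 (53.5 CPM) had 26.3 CPM of H2-D1, below the WT median.

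With the log2 level of Vps52 as a covariate, a choice made after these values had been seen, the fold change of H2-D1 was 1.02 (adjusted p = 0.0068) in G34R at 10 weeks, 0.44 (0.217) in G34V and 0.43 (0.338) in G34W, and -0.34 (adjusted p = 0.551) in G34R at day 7. Vps52 itself did not pass the test between any mutant group and WT, with fold changes of 0.19, 0.03 and -0.16 at 10 weeks and -0.15 at day 7 (adjusted p 0.494 to 0.948). What sets this pattern was not tested.

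**Figure D5:**
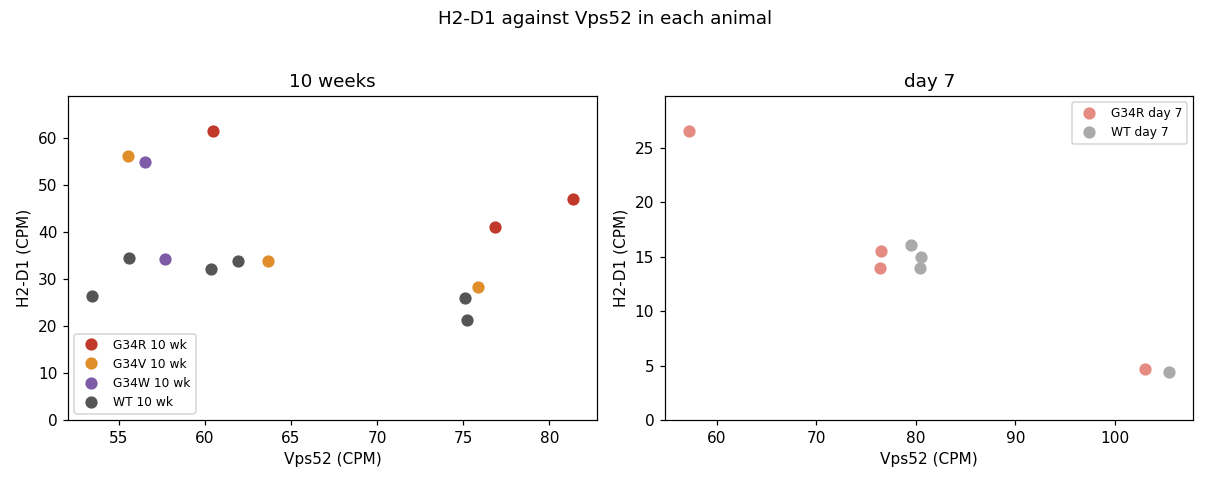
H2-D1 against Vps52, both in CPM, in each animal at 10 weeks (left) and at day 7 (right), coloured by group; the x axes do not start at 0. At day 7 the pups with Vps52 of 103 and 106 CPM have 4.71 (G34R) and 4.45 (WT) CPM of H2-D1, and the pup with 57.2 CPM has 26.6 CPM.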

How the data were processed

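RNA-seq read counts per gene, as the authors deposited them, were used for 23 libraries of 22 animals. Both libraries of WT replicate 3 at 10 weeks were summed, except in fits that used column sets. With column sets as a block they entered as separate samples, 15 in all, so p-values of that fit treat 1 animal as 2. Fits within a column set held at most 1 of these libraries. The submitters' processing notes name Trimmomatic 0.32, STAR 2.3.0e, featureCounts 1.4.4 and bedtools 2.27.1 with mm10; strand setting and annotation release: not given in the sources used here. Counts were tested with edgeR 4.0.16 (R 4.3.3; filterByExpr, TMM, robust quasi-likelihood, Benjamini-Hochberg adjustment over all genes tested, threshold 0.05): 14 animals at 10 weeks (21288 genes), 8 at day 7 with sex as a covariate (20461 genes), and 22 in 6 groups with sex for differences between ages (22432 genes). SE is the log2 fold change over the root of F. CPM were computed on 1 TMM scale over the 22 animals, and CPM per kilobase used GENCODE M21 exon lengths. Within-animal ratios had exact permutation tests (scipy 1.17.1), adjusted over 12. Alternatives were RLE scaling, other filters, DESeq2 1.42.0, 1 library of the summed pair, runs of consecutive animal numbers or sets of adjacent columns as a block, sex, Vps52 and leaving out each animal; the column sets and Vps52 were added after seeing the data. Of 39017 genes, 37607 matched GENCODE. The script was tested on simulated data. The members and gene lists were chosen with earlier results of these data known. Named genes were all members, all tested regulators, counterparts and activators, up to 4 called genes of each other list, neighbours within 50 kb, and the 5 genes most like B2m and Psmb10. Some results that this rule names are not reported here. Precision is limited by 2 to 6 animals a group; total counts per library are given with the results.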

Additional observations from a re-analysis of the deposited data

Results flagged for a closer look

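Of 30 groups of at least 4 animals whose spread was examined for each member, 2 held an animal far from the others, where chance gives about 1 in 20 groups. H2-K1 in WT replicate 3 at day 7 was 9.71 CPM, against 5.85 to 6.27 CPM in the other WT pups. Among WT pups the same animal, a female, was highest for Tap1 (5.08 CPM), Tap2 (3.66 CPM), Psmb8 (1.91 CPM) and Psmb9 (1.44 CPM). It was also highest for H2-D1 (16.1 CPM), Psmb10 (21.5 CPM) and Psme1 (40.6 CPM), but not for B2m or Tapbp. Psmb9 in WT replicate 6 at 10 weeks was 1.39 CPM, against 0.940 to 1.10 CPM in the other WT animals, and that animal was the highest WT animal for no other member. The G34R effect differed between ages by a test of the difference itself for B2m (0.86, edgeR adjusted p = 0.0288) and H2-K1 (1.33, edgeR adjusted p = 0.0378). Without WT replicate 3 at day 7 the differences were 0.78 (adjusted p = 0.067) and 1.10 (adjusted p = 0.081). What set these values was not tested.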

How the results depend on the processing

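Of the 10 members, 7 were called in G34R against WT at 10 weeks, and 4 to 7 with 1 animal left out; without replicate 2 of G34R, H2-K1, Tap1 and Tapbp lost their call. B2m, Psmb8, Psmb9 and Psmb10 passed in all 21 alternatives of that comparison, as did Psmb10 in G34V. The 2 calls of G34V became 1 with number runs or column sets as a block and within its column set, and 1 to 2 with 1 animal left out, while DESeq2 added Psmb9 (adjusted p = 0.0498). For G34W, 0 calls became 1 under DESeq2 and stayed 0 with any animal left out. G34R against G34V gave 0, 3 under DESeq2 and 0 to 4 with 1 animal left out. G34R against G34W gave 1, 3 under DESeq2, 0 with sex, column sets or Vps52 in the model, and 0 to 1 with 1 animal left out; G34V against G34W gave 0 with any animal left out. The 1 call at day 7 became 0 whichever pup was left out. The 2 age differences became 1 without the count filter, 4 under DESeq2 and 0 to 3 with 1 animal left out, and the 7 WT age calls 6 to 9. Over all genes DESeq2 also called more than edgeR. For G34R against G34W it called 536 higher and 587 lower of 21288, against 200 and 199 by edgeR.

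Sign changes met no called value. Psme1 in G34R became 0.00023 with library 1 alone, 0.017 with column sets, 0.030 within its set and 0.080 with Vps52, and in G34V 0.025 with number runs. In G34W, Tap2 became -0.041 with number runs, -0.039 with column sets and -0.042 within its set, and Psme1 0.060 with sex. G34R minus G34V became -0.051 for H2-D1 and -0.0077 for Psmb10 with column sets. G34R minus G34W became -0.13 for H2-D1, -0.0041 for Psmb9 and -0.073 for Psme1 with sex. G34V minus G34W became 0.0042 for Psmb8 without the filter; -0.11 for Tap2, 0.020 for Tapbp and -0.18 for Psme1 with sex; 0.20 for H2-D1 and 0.0021 for Psmb9 with column sets; and 0.0125 for H2-D1, 0.012 for Tapbp, 0.010 for Psmb9 and 0.062 for Psmb8 with Vps52. At day 7, Vps52 gave -0.34 for H2-D1 and -0.11 for Psmb8.

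With 1 animal left out, signs changed over these ranges: Psme1 in G34R -0.099 to 0.034, Tap1 in G34V -0.16 to 0.51, and in G34W Tap2 -0.082 to 0.21 and Psme1 -0.36 to 0.058. For G34R minus G34W they were -0.13 to 0.55 for H2-D1, -0.0031 to 0.56 for Psmb9 and -0.072 to 0.34 for Psme1. For G34V minus G34W they were -0.39 to 0.33 for H2-K1, -0.51 to 0.20 for H2-D1, -0.0024 to 0.35 for B2m, -0.54 to 0.14 for Tap1, -0.11 to 0.18 for Tap2, -0.083 to 0.029 for Tapbp, -0.28 to 0.26 for Psmb8, -0.33 to 0.23 for Psmb9 and -0.17 to 0.23 for Psme1. At day 7 they were -0.15 to 0.69 for H2-D1, -0.28 to 0.049 for Tap2, -0.26 to 0.0035 for Tapbp, -0.21 to 0.49 for Psmb8, -0.57 to 0.085 for Psmb9 and -0.24 to 0.67 for the Psmb8 ratio. The cause of these changes was not tested. No paired analysis was possible because the labels give the animals no replicate numbers shared between groups; animals whose numbers follow each other were grouped as a block instead, as given above, and no label says that such runs mark litters.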
